A study of Homo sapiens with 40 samples.

Results

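The early transcriptional response to a statin was measured in MDA-MB-231, an established human breast cancer line of mesenchymal character, after 12 h in 2 µM fluvastatin. The comparison used 8 of the 40 arrays of the series: 4 of cells given fluvastatin and 4 of mock-treated cells given the solvent, both from lot I at 12 h, paired by replicate number. The design text describes 4 independent replicates per group, says that pairing removes variation from the day of measurement, and gives 2 µM as the IC50 of a 72 h treatment. Further arrays served as reference: lot I cells in 30 µM zoledronate for 12 h, lot I cells in fluvastatin or solvent for 24 h, and lot II cells in 100 µM zoledronate or solvent for 24 h. Every group grew in the same serum-containing medium, and the labels name no rescue with mevalonate.

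Statins block the enzyme that makes mevalonate, the precursor of cholesterol and of the farnesyl and geranylgeranyl lipids. These lipids are attached to the tail of many small GTPases and hold them on membranes, where they act. Loss of sterol is known to activate SREBP factors, which switch on the genes of sterol synthesis and uptake. Loss of geranylgeranyl lipid is known to raise RHOB and KLF2 RNA in several cell types, and to keep the coactivators YAP and TAZ out of the nucleus, where they act with TEAD factors. Zoledronate blocks farnesyl diphosphate synthase (FDPS), a later enzyme of the same pathway.

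Promoters are shown for RHOB, the gene with the largest rise, for KLF2, and for CCN2 and ANKRD1, a pair of well known YAP/TAZ targets. Each sequence is the 250 bases before the RefSeq gene start in GRCh38.p14, written 5′ to 3′ on the gene's strand. Capitals mark the searched motifs found on either strand: the CCAAT box (CCAAT), the TEAD motif (GGAATG), the KLF motif (CACCC) and the MEF2 box. The searches also covered an SRE (TCACNCCAC), an E-box (CACGTG), a FOXO motif (GTAAACA) and the CArG box, which had no match in these windows.
RHOB, chr2:20446824-20447073, plus strand: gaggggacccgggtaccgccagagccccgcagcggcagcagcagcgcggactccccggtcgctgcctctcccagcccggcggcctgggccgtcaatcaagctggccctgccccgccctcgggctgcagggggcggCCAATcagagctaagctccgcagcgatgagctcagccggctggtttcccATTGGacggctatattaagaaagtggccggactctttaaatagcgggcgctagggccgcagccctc
KLF2, chr19:16324576-16324825, plus strand: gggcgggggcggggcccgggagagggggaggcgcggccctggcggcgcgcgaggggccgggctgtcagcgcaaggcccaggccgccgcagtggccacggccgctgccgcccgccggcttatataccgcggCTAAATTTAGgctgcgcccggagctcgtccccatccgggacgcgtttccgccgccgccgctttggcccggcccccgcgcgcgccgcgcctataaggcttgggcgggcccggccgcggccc
CCN2, chr6:131951373-131951622, minus strand: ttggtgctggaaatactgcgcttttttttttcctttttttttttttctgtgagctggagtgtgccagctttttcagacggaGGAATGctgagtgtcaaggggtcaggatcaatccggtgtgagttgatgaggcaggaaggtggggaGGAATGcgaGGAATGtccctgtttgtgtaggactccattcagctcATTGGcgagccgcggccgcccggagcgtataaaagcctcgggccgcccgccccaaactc
ANKRD1, chr10:90921088-90921337, minus strand: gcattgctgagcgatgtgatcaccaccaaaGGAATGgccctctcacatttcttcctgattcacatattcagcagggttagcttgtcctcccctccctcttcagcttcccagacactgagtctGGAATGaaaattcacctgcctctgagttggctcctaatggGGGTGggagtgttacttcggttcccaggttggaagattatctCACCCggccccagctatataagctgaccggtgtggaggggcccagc

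The RHOB window held a CCAAT box 115 to 111 bases upstream of the start and a second one, on the other strand, 66 to 62 bases upstream. The KLF2 window held a palindromic MEF2 box, CTAAATTTAG, 120 to 111 bases upstream. In CCN2 the TEAD motif stood at 169 to 164, 104 to 99 and 95 to 90 bases upstream, and in ANKRD1 at 220 to 215 and 128 to 123. Of 14239 measured genes with a promoter in the RefSeq table, 9.99% held the TEAD motif, 34.4% the CCAAT box, 57.8% the KLF motif and 1.98% the MEF2 box. Among genes that passed the test at 12 h, the TEAD motif was in 5 of 52 risen genes (9.62%) and 16 of 75 fallen genes (21.3%). It was in 6 of the 19 YAP/TAZ targets with a promoter (31.6%). The CCAAT box was in 38.5% of risen and 40.0% of fallen genes, and in 11 of 17 sterol synthesis genes (64.7%). A match is a description of these letters and not evidence of binding.

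The deposited values are log2 signals from RMA, a method that corrects, normalizes and summarises the probes of a probe set. The array medians of the 8 arrays lay between 6.22 and 6.29. Markers of a mesenchymal breast line (VIM, CD44, AXL, CAV1, MSN and ZEB1) had a mean signal of 10.84 to 11.08 in control and 10.77 to 11.07 in fluvastatin arrays. The mean was 5.89 to 6.16 for 6 luminal markers, 4.45 to 4.75 for 4 blood markers, 5.03 to 5.26 for 5 fibroblast markers and 5.27 to 5.46 for 5 endothelial markers over both groups. No marker passed the test in any of these lists. The values are bulk signals, in which fewer cells expressing a gene and less RNA per cell cannot be told apart.

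At 12 h, fluvastatin changed 161 of 18417 genes (0.874%), of which 64 rose (0.348%) and 97 fell (0.527%). Genes counted as changed ("called") had an adjusted p below 0.05 in limma with the replicate number as a block, Benjamini-Hochberg over all genes. The largest rise was that of RHOB, by 1.48 on the log2 scale, and the largest called fall was that of TGFB2, −0.82. The median called rise was 0.47 and the median called fall −0.39, against a median of 0.01 and an SD of 0.15 over all genes. By size, 23 of the risen and 14 of the fallen genes moved by 1.5-fold or more. All 64 rises and 96 of 97 falls went the same way in 4 of 4 pairs, the exception being TLCD3A with 1 pair higher. Over all genes, 11.4% were higher and 10.8% lower in all 4 pairs. An unadjusted p below 0.05 was reached by 2552 genes (13.9%). These shares, with those of called genes, are the background for the counts in the gene lists below. The 4 fluvastatin values lay wholly above the controls for 50 risen genes (2.45% of all genes did) and wholly below for 57 fallen genes (2.01% of all genes).

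The size of the response differed between pairs, with a mean change of the risen genes of 0.68, 0.50, 0.56 and 0.40 in pairs 1 to 4 and of the fallen genes of −0.62, −0.42, −0.34 and −0.35. Pair 1 thus had the largest shift both ways. The number of called genes fell to 0 without replicate 1, to 18 without replicate 2, to 37 without replicate 3 and to 51 without replicate 4. Without replicate 1 all 161 genes kept an unadjusted p below 0.05, 1657 genes passed that unadjusted level, and the smallest adjusted p was 0.0716. That all 161 passed the unadjusted level is weak support, as they were selected for a small p on arrays that include the remaining pairs. All 161 also kept their sign, which says little, as all but TLCD3A moved one way in 4 of 4 pairs. Without the replicate block 20 genes were called, all among the 161. Scaling moved the split between directions, with 56 risen and 169 fallen genes after median centring and 73 and 90 after quantile normalization anew.

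**Figure D1:**
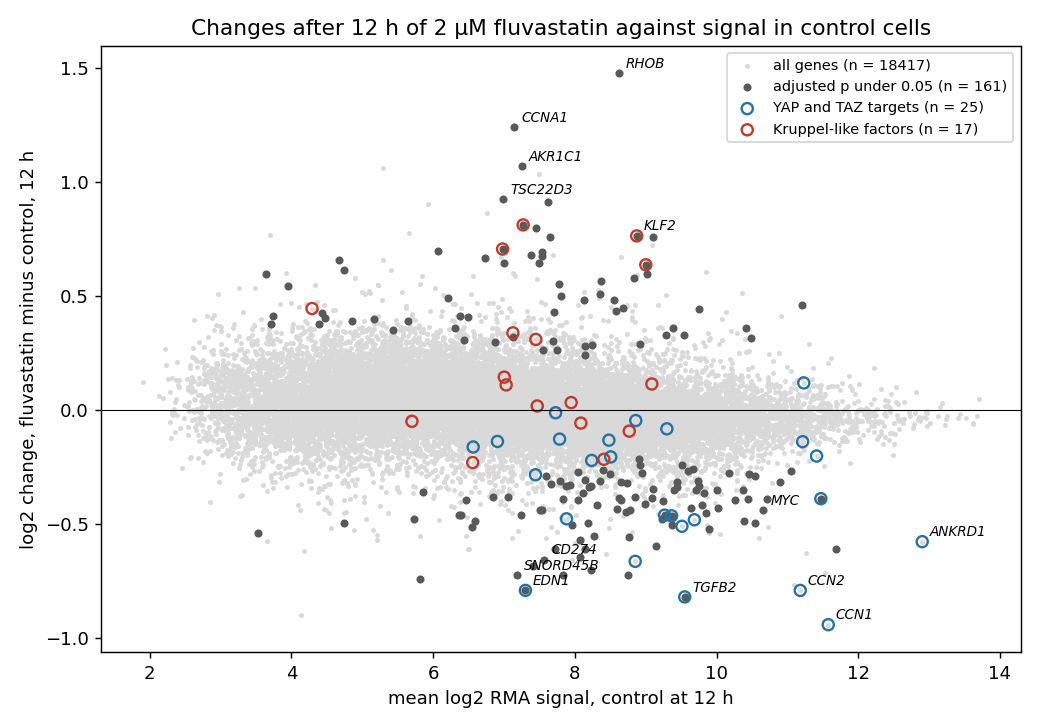
Log2 change at 12 h (fluvastatin minus control, y axis) against mean log2 RMA signal in control cells (x axis), for 18417 genes, with the 161 called genes in dark grey and rings around 25 YAP/TAZ targets and 17 Kruppel-like factors. RHOB stands highest at 1.48, and the ringed YAP/TAZ targets lie below 0 except NT5E at 0.12.

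RHOB, an endosomal small GTPase with a short-lived RNA, carried the largest change of any gene. Its signal was 8.79, 8.43, 8.69 and 8.56 in control replicates 1 to 4 and 10.67, 9.87, 10.19 and 9.65 in the fluvastatin replicates. Every treated array lay well above every control array, and replicate 1 was the highest. The change was 1.48 ± 0.21 (SE, 4 pairs), 2.78-fold, with an adjusted p of 0.0033 in limma. With replicate 1 left out the adjusted p was 0.0776.

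The close relatives of RHOB had smaller estimates, none of which passed the test. RHOA, the main driver of stress fibres, had a change of 0.19 ± 0.06 and RHOC, linked to invasion, one of 0.22 ± 0.09, with adjusted p of 0.15 and 0.24. All 4 pairs were higher for RHOA, whose control values were 12.21, 12.14, 12.23 and 12.31 against 12.47, 12.36, 12.43 and 12.37. RND3, a farnesylated GTPase, had a change of −0.28 ± 0.09 (adjusted p 0.13), RAC1 one of 0.07 ± 0.05 and CDC42 one of −0.03 ± 0.10. None of 16 Ras, Ral and Rap genes passed (1 at an unadjusted p below 0.05, median 0.05, range −0.06 to 0.23).

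**Figure D2:**
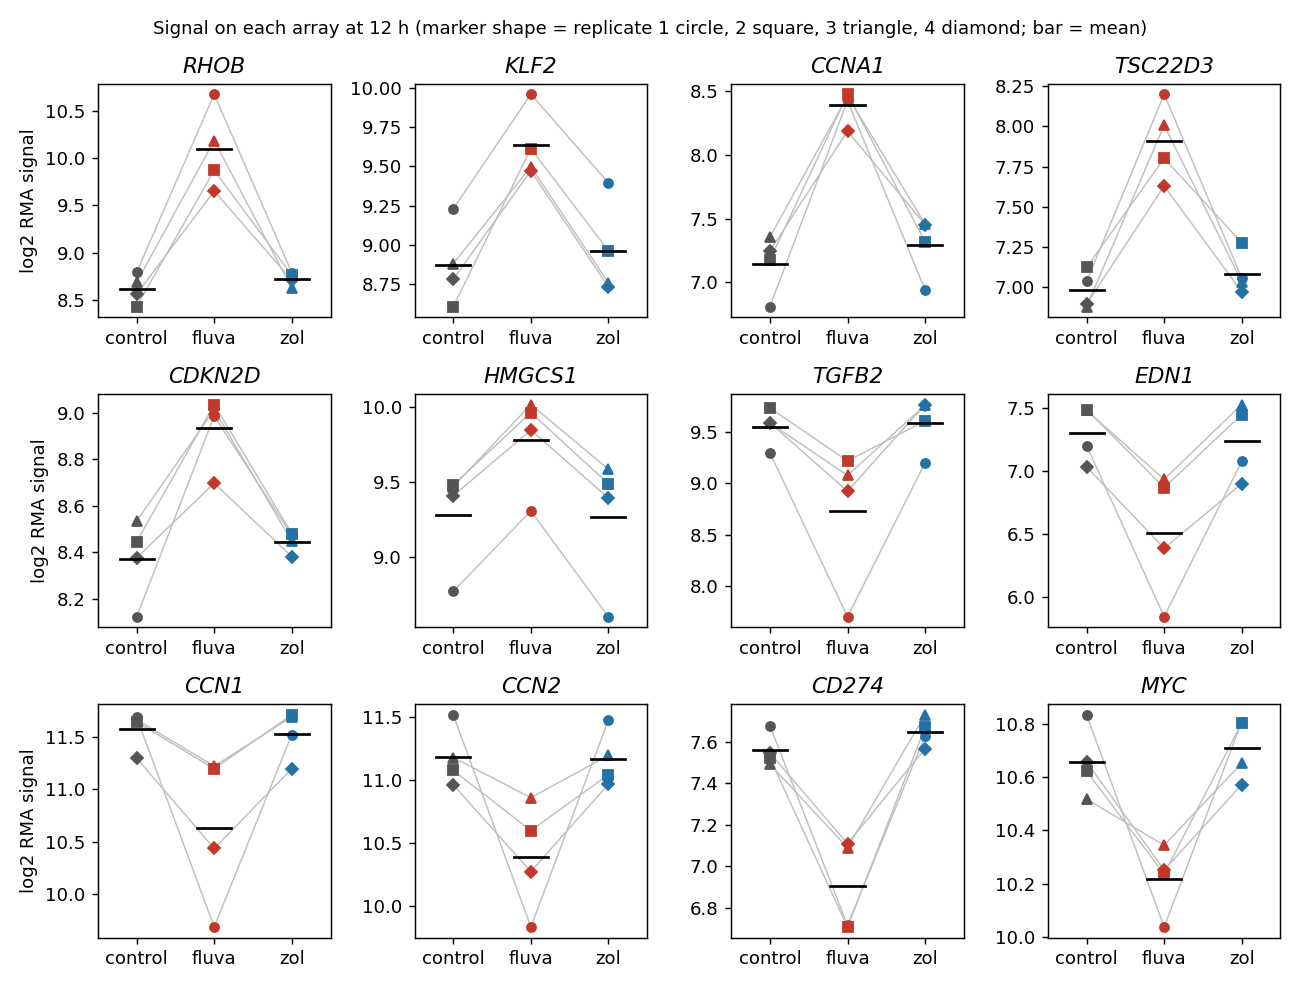
Log2 RMA signal of 12 genes on each array at 12 h (y axis), for control, 2 µM fluvastatin and 30 µM zoledronate cells, with 1 marker shape per replicate, grey lines joining a replicate and black bars at group means. The fluvastatin arrays stand above both other groups for RHOB, CCNA1 and TSC22D3 and below both for CD274 and MYC, and replicate 1 is the lowest fluvastatin array for TGFB2, EDN1, CCN1 and CCN2.

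Genes of the pathway that the drug blocks had small upward estimates, none of which passed the test. HMGCS1, which makes the substrate of the blocked enzyme, read 8.77, 9.48, 9.47 and 9.41 in controls and 9.31, 9.97, 10.02 and 9.85 with fluvastatin. Each pair was higher by about the same amount, while control replicate 1 lay well below the others, so that the groups overlapped. The change was 0.50 ± 0.16 (adjusted p 0.15). Of 9 measured genes of mevalonate and polyprenyl synthesis, 0 were called in limma (3 at an unadjusted p below 0.05) and 7 were positive (median 0.11), among them IDI1 (0.27), GGPS1 (0.29) and FDPS (0.04 ± 0.10, adjusted p 0.90). All 10 measured genes of sterol synthesis after farnesyl diphosphate were positive, with a median of 0.14. In all 4 pairs 7 were higher (11.4% of all genes were). Of the 10 genes, 0 were called and 5 had an unadjusted p below 0.05 (13.9% of all genes did). MSMO1, a sterol demethylating oxidase, had the largest estimate there, 0.31, followed by TM7SF2 (0.24), SQLE (0.22 ± 0.10, adjusted p 0.34) and CYP51A1 (0.21).

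Sterol sensing and uptake genes did not pass either. INSIG1, an SREBP target whose product retains SREBP in the endoplasmic reticulum, read 8.24, 8.97, 8.80 and 9.18 in controls and 9.0, 9.20, 9.17 and 9.40 in treated cells. All 4 pairs were higher, though the groups overlapped, and the change of 0.39 ± 0.10 missed the threshold (adjusted p 0.058). STARD4, a sterol carrier, had 0.29 and LPIN1, a phosphatidate phosphatase, 0.25. Over all 20 measured genes of SREBP regulation, sterol uptake and lipid synthesis, these included, the median was 0.02 and 3 had an unadjusted p below 0.05. None of 9 LXR and efflux genes passed (1 at an unadjusted p below 0.05, median 0.04), and none of 12 prenylation genes (2 at that level, median −0.08), of which 10 were negative.

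Kruppel-like factors, zinc finger regulators of which KLF2 is the classic statin-induced member in endothelium, held 4 risen genes among 17, and none fell. Of all genes, 0.348% rose and 0.527% fell. KLF2 read 9.23, 8.60, 8.88 and 8.78 in controls and 9.96, 9.61, 9.50 and 9.47 in fluvastatin. The lowest treated value lay above the highest control value, and replicate 1 was the highest in both groups. Its change was 0.76 ± 0.11 (adjusted p 0.0033). KLF7, a factor best known from neurons, went from 7.52, 7.02, 7.17 and 7.36 to 8.53, 7.73, 8.14 and 7.92, a rise of 0.81 ± 0.13 (adjusted p 0.0049). KLF6, a broadly expressed factor described as a growth suppressor, rose from 8.94, 8.77, 9.0 and 9.29 to 9.92, 9.22, 9.64 and 9.77, by 0.64 ± 0.10 (adjusted p 0.0047). The KLF7 groups did not overlap, whereas fluvastatin replicate 2 of KLF6 lay below control replicate 4.

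KLF13, a repressor and activator of lymphocyte genes, had a change of 0.71 ± 0.13 (adjusted p 0.013) on the probe set used and of 0.11 on a dimmer second one. KLF9 had 0.31 ± 0.08 (adjusted p 0.064), KLF8 0.45 and KLF3 0.34, and none of these passed. KLF4, often raised with KLF2 in endothelium, had −0.22 ± 0.12 (adjusted p 0.43). The median of the family was 0.11, and 8 of 17 members were higher in all 4 pairs (11.4% of all genes were). By pair the family median was 0.22, 0.07, 0.26 and −0.001 in pairs 1 to 4. Of 13 genes known to respond to statins in endothelium, KLF2 rose (0.348% of all genes did) and EDN1 fell (0.527% of all genes did). The nitric oxide synthase NOS3 had a change of 0.02 ± 0.08.

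Targets of YAP and TAZ pointed down as a group: 24 of 25 measured targets had a negative change, 19 were lower in all 4 pairs, and 5 passed the test (TGFB2, EDN1, FJX1, ASAP1 and CRIM1). The group median was −0.28, and it was −0.52, −0.31, −0.16 and −0.28 in pairs 1 to 4, beside 0.01 for all genes. Over all 18417 genes, 8555 had a negative change, 10.8% were lower in all 4 pairs and 0.527% fell. TGFB2, a TGF-beta ligand, read 9.30, 9.73, 9.59 and 9.59 in controls and 7.70, 9.22, 9.08 and 8.92 with fluvastatin. No treated value reached the lowest control, and treated replicate 1 lay far below the other treated arrays. The change was −0.82 ± 0.17 (adjusted p 0.017), and −0.56 without replicate 1. Without the replicate block its adjusted p was 0.27.

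EDN1, the precursor of the vasoconstrictor endothelin 1, fell from 7.20, 7.49, 7.48 and 7.03 to 5.85, 6.87, 6.94 and 6.39, by 0.79 on the log2 scale (SE 0.15, adjusted p 0.015). The highest treated value lay below the lowest control. FJX1, a secreted regulator related to the fly protein Four-jointed, changed by −0.46 ± 0.11, ASAP1, an Arf GTPase activator linked to invasion, by −0.46 ± 0.09, and CRIM1, a BMP-binding membrane protein, by −0.39 ± 0.09 (adjusted p 0.044, 0.015 and 0.047). CRIM1 lies outside the rule for named genes.

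The best known targets, CCN1 and CCN2, had changes of similar size but larger errors. CCN1, a matricellular protein, read 11.69, 11.65, 11.67 and 11.30 in controls and 9.68, 11.20, 11.22 and 10.44 in treated cells. CCN2, its relative also called connective tissue growth factor, read 11.52, 11.07, 11.18 and 10.96 against 9.83, 10.60, 10.86 and 10.27. The treated values of both lay below every control value, with replicate 1 lowest. The changes were −0.94 ± 0.24 for CCN1 and −0.79 ± 0.20 for CCN2, with adjusted p of 0.0605 and 0.0635. Both passed when the dimmest genes were left out and 12278 remained (0.0364 and 0.0374). Without replicate 1 the estimates were −0.59 for CCN1 and −0.49 for CCN2.

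ANKRD1, a stress-inducible muscle and YAP target, went from 12.86, 12.92, 12.96 and 12.87 to 11.59, 12.62, 12.51 and 12.58. All treated arrays were lower, but 1 array, replicate 1, carried much of the difference of −0.58 ± 0.20 (adjusted p 0.17), which was −0.35 without it. The angiomotin relative AMOTL2 had −0.66 ± 0.17 (adjusted p 0.058), and the receptor kinase AXL −0.20 ± 0.08 (adjusted p 0.22). The surface enzyme NT5E was the single positive member, at 0.12. Of the 18 listed Hippo pathway components, which are not all of them, 0 passed (5 at an unadjusted p below 0.05), with YAP1 at −0.02 and WWTR1, which encodes TAZ, at 0.27.

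The list of SRF and actin genes had a median of −0.06 over 25 genes. Of these, 18 were negative, and 9 were lower (10.8% of all genes) and 1 higher (11.4%) in all 4 pairs. An unadjusted p below 0.05 was reached by 9 of the 25, all of them lower, beside 13.9% of all genes. A single one passed: CALD1, the actin-binding caldesmon, read 7.58, 7.57, 7.61 and 7.29 in controls and 6.98, 7.17, 7.33 and 6.82 with fluvastatin. Each pair was lower, and fluvastatin replicate 3 lay above control replicate 4. The change was −0.44 ± 0.08 (adjusted p 0.015). TAGLN had −0.41, SRF itself −0.26 and beta-actin (ACTB) −0.03, all short of the threshold. NEXN, an actin filament protein not among these genes, changed by −0.72 ± 0.16 (adjusted p 0.030).

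Cell cycle genes showed single strong movers rather than a called group. CCNA1, a cyclin better known from germ cells, read 6.81, 7.18, 7.35 and 7.25 in controls and 8.43, 8.48, 8.46 and 8.19 with fluvastatin. The treated arrays were close together and all far above the controls. It rose by 1.24 ± 0.22, 2.36-fold (adjusted p 0.012). CCNA1 was the one called gene among 29 of G1 and S phase (0.348% of all genes rose). In that list 26 genes were negative and 12 were lower in all 4 pairs (10.8% of all genes were). The median was −0.11, and CDC25A (−0.42), ORC1 (−0.28) and CDC6 (−0.23) were among the negative ones. An unadjusted p below 0.05 was reached by 3 of the 29, of which 2 were lower, beside 13.9% of all genes. None of 29 G2 and mitosis genes passed, nor did any at an unadjusted p below 0.05 (median 0.06).

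All 6 measured inhibitors of cyclin-dependent kinases had positive changes, 5 of them in every pair (11.4% of all genes), with a median of 0.30. CDKN2D, the inhibitor p19, read 8.12, 8.45, 8.53 and 8.38 in controls and 8.99, 9.04, 9.01 and 8.70 in treated cells. The groups did not overlap, treated replicate 4 was the lowest of its group, and the change was 0.56 ± 0.09 (adjusted p 0.0042). CDKN1A, which encodes p21, had 0.40 ± 0.10 (adjusted p 0.0605), and CDKN1B, which encodes p27, had 0.25 ± 0.08 (adjusted p 0.14). CCND1, the G1 cyclin D1, had −0.17 ± 0.06 (adjusted p 0.19).

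Genes linked to FOXO factors and quiescence leaned upward, with 19 of 22 positive and a median of 0.17. In all 4 pairs 11 were higher (11.4% of all genes were), and 3 rose (0.348% of all genes did). TSC22D3, which encodes the anti-inflammatory leucine zipper GILZ, read 7.04, 7.12, 6.88 and 6.90 in controls and 8.20, 7.80, 8.01 and 7.63 with fluvastatin. The groups were well apart, and the rise was 0.92 ± 0.14 (adjusted p 0.0039). PDK4, a kinase that turns off pyruvate dehydrogenase, read 5.98, 6.12, 5.93 and 6.25 in controls and 6.82, 6.82, 6.71 and 6.73 in treated cells. It rose by 0.70 ± 0.14 (adjusted p 0.016), again without overlap. CCNG2, an atypical cyclin of arrested cells, rose by 0.68 ± 0.16 (adjusted p 0.041).

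SGK1, a growth and ion transport kinase that like TSC22D3 is induced by glucocorticoids, moved the other way. It read 7.45, 7.18, 7.33 and 6.99 in controls and 6.73, 6.80, 6.97 and 6.60 in treated cells, a change of −0.46 ± 0.07 (adjusted p 0.0039). The other 10 glucocorticoid-induced genes did not pass.

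MYC, the growth-promoting transcription factor, read 10.83, 10.62, 10.52 and 10.66 in controls and 10.04, 10.24, 10.34 and 10.25 with fluvastatin. The highest treated array stayed below the lowest control. The change was −0.44 ± 0.10 (adjusted p 0.040). MYC was the one called gene among 18 AP-1 and immediate early factors (0.527% of all genes fell), where EGR1 had −0.06 and FOSL1 −0.26. The listed ribosome biogenesis genes, which include known MYC targets, had a median of −0.18, and all 18 were negative. In every pair 13 were lower (10.8% of all genes were), but 0 passed in limma. An unadjusted p below 0.05 was found for 12 of them (13.9% of all genes). The largest estimates in that list were those of POLR1B (−0.26), BOP1 (−0.25) and DKC1 (−0.24).

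Enzymes that reduce steroids and aldehydes were among the largest rises. AKR1C1 read 6.96, 7.06, 7.40 and 7.57 in controls and 8.44, 8.08, 8.42 and 8.33 in treated cells, without overlap. It rose by 1.07 ± 0.21 (adjusted p 0.015) on the probe set used, and its other probe set gave 0.69. AKR1C3 rose by 0.76 ± 0.17 (adjusted p 0.036), and AKR1C2 had 0.91 ± 0.24 (adjusted p 0.072). These genes are similar in sequence, so their probes may share signal. No other member of the 17 NRF2 and oxidative stress genes passed, with HMOX1 at 0.31 and NQO1 at 0.19.

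CYP1B1, an oestrogen- and xenobiotic-oxidising enzyme, read 6.96, 7.99, 7.95 and 7.69 in controls and 8.20, 8.69, 8.62 and 8.11 with fluvastatin. Each of the 4 pairs was higher while control replicate 1 lay low, the groups did not overlap, and the rise was 0.76 ± 0.11 (adjusted p 0.0033). DDIT4, an inhibitor of the growth kinase mTORC1, rose by 0.91 ± 0.21 (adjusted p 0.042). It was the one called gene of 16 stress and unfolded protein genes (0.348% of all genes rose). CLDN4, a tight junction claudin, rose by 0.69 ± 0.11 (adjusted p 0.0047). It was the one called member of 20 luminal and secretory genes (median 0.15), where 0.348% of all genes rose. In that list SPDEF, a luminal and secretory cell factor, had 0.86 with an adjusted p of 0.064. ADGRG1, an adhesion G protein-coupled receptor, rose by 0.80 ± 0.18 (adjusted p 0.038).

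Immune checkpoint ligands held 2 fallen genes among 9 (0.527% of all genes fell). CD274, which encodes PD-L1, read 7.68, 7.52, 7.49 and 7.55 in controls and 6.71, 6.71, 7.09 and 7.11 in treated cells. The groups were apart, replicates 1 and 2 were lowest, and the change was −0.66 ± 0.13 (adjusted p 0.017). PDCD1LG2, which encodes PD-L2, changed by −0.49 ± 0.11 (adjusted p 0.038), and PVR, the ligand of TIGIT, by −0.31 with an adjusted p of 0.066. None of 24 interferon-stimulated genes passed (6 at an unadjusted p below 0.05, median 0.11), nor any of 22 cytokine, chemokine and NF-kB genes (3 at that level, median −0.01). That level was reached by 13.9% of all genes.

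In the TGF-beta group of 22 genes, TGFB2 and the BMP-signal transducer SMAD1 fell and the receptor TGFBR1 rose. Of all genes, 0.348% rose and 0.527% fell. SMAD1 read 7.21, 7.10, 6.94 and 6.98 in controls against 6.80, 6.75, 6.63 and 6.51, a change of −0.38 ± 0.08 (adjusted p 0.016). TGFBR1 read 9.52, 9.96, 9.80 and 9.71 against 10.05, 10.31, 10.28 and 10.11, a change of 0.44 ± 0.08 (adjusted p 0.0091). Neither gene's groups overlapped. Among 13 bone metastasis mediators 0 passed and 6 had an unadjusted p below 0.05 (13.9% of all genes did). The Wnt inhibitor DKK1 stood at −0.63 ± 0.21 (adjusted p 0.17) and the activin antagonist follistatin (FST) at −0.77 (adjusted p 0.080).

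The remaining large falls were of mixed function. ATP8B1, a phospholipid flippase, read 7.74, 7.90, 7.76 and 7.96 in controls and 6.78, 7.06, 7.27 and 7.35 in treated cells, with no overlap, and changed by −0.72 ± 0.13 (adjusted p 0.0091). ZNF699, a zinc finger gene, read 7.35, 7.46, 7.43 and 7.39 against 6.48, 6.95, 6.67 and 6.80 and changed by −0.68 ± 0.10 (adjusted p 0.0033). Its control arrays agreed closely and all treated arrays were lower. The secreted protease ADAMTS6 had −0.61 ± 0.11, the cytokine receptor IL7R −0.64 ± 0.14, the snRNA gene activator SNAPC1 −0.61 ± 0.13 and MYCT1, a nuclear MYC target, −0.74 ± 0.17, with adjusted p of 0.0083, 0.032, 0.029 and 0.037.

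Small nucleolar RNAs, which guide chemical modification of ribosomal RNA, had mostly negative estimates: 39 of 192 were positive, 68 were lower in every pair and the median was −0.17. The 4 that passed were SNORD45B (−0.73), SNORA62 (−0.70), SNORD32B (−0.39) and SNORD105 (−0.38). Over all 18417 genes, 9862 were positive, 10.8% were lower in every pair and 0.527% fell. Of 494 ZNF genes, 5 fell and 0 rose, where 0.527% of all genes fell and 0.348% rose (ZNF699, ZNF215, ZNF692, ZNF804A and ZNF330), with a median of −0.03. Of 346 olfactory receptor genes, which this line is not known to use, 0 were called, and their median was 0.02. The snoRNA, ZNF and olfactory groups were formed by symbol.

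**Figure D3:**
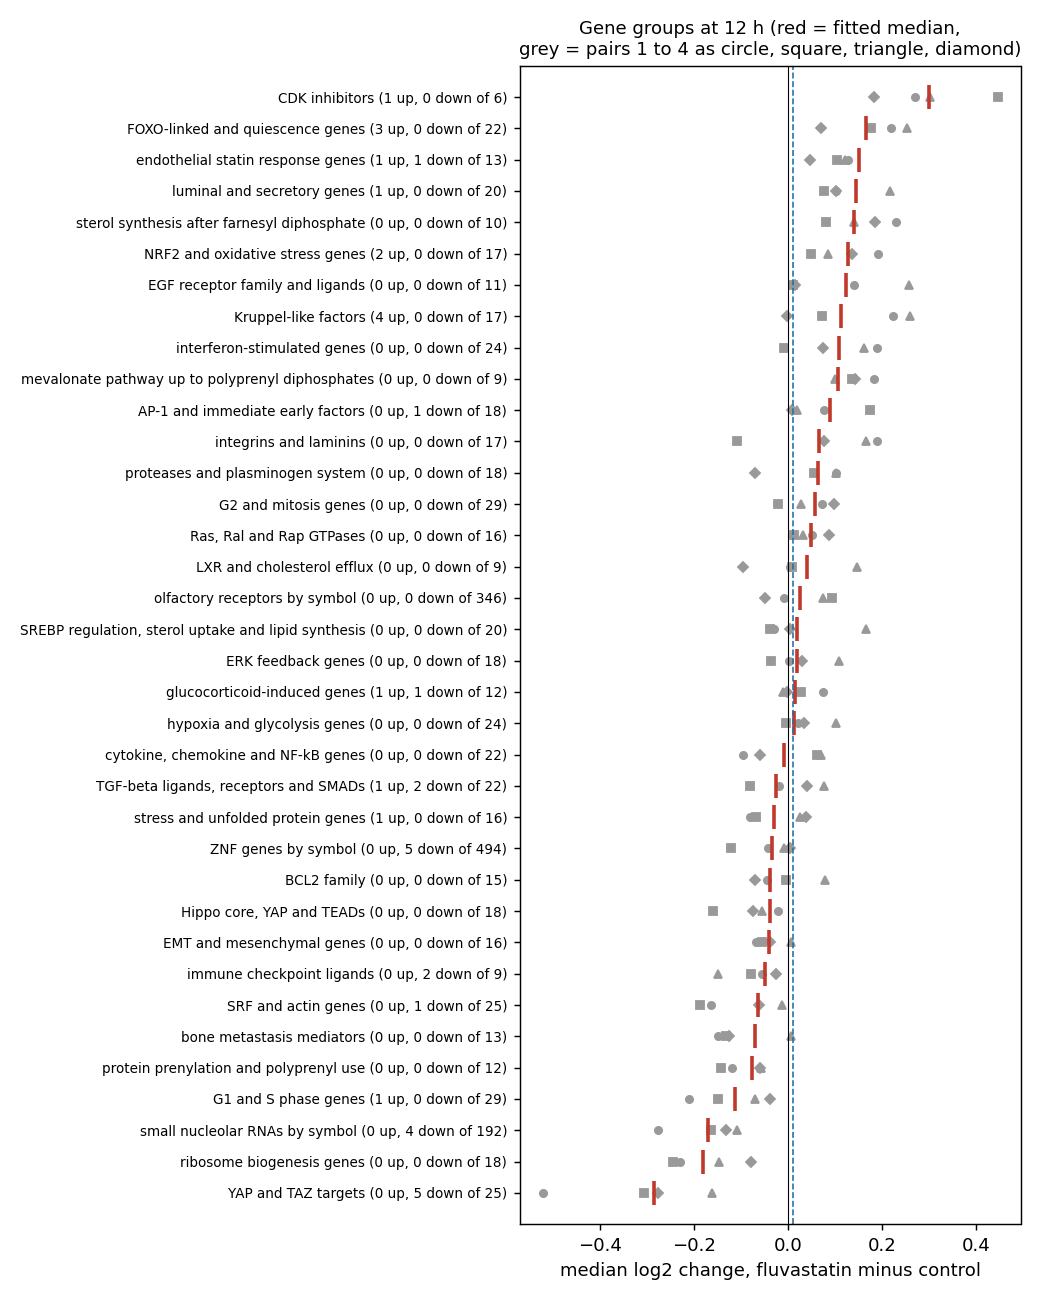
Median log2 change at 12 h (fluvastatin minus control, x axis) for each gene group (rows, with genes up and down of those measured), where red marks give the fitted median, grey symbols the median in each of 4 pairs and the blue dashed line the median of all genes. YAP/TAZ targets have the lowest median, −0.28, and CDK inhibitors the highest, 0.30.

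Further groups had no called member in limma. They were the ERK feedback genes (8 of 18 at an unadjusted p below 0.05, median 0.02), the EGF receptor family (5 of 11, median 0.12), hypoxia and glycolysis genes (10 of 24, median 0.01) and EMT genes (2 of 16, median −0.04). Integrins and laminins (3 of 17, median 0.07), proteases (2 of 18, median 0.06) and the BCL2 family (5 of 15, median −0.04) had none either. By the same unadjusted level, 13.9% of all genes passed. A gene that misses the threshold is not shown to be unchanged. The median SE of a gene was 0.09, and the smallest called change was 0.21 in size.

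Fluvastatin and zoledronate at 12 h were also compared with each other directly, at doses that each correspond to the IC50 at 72 h per the design text. Fluvastatin and zoledronate cells differed in 136 genes (0.738%), of which 52 were higher (0.282%) and 84 lower (0.456%) with fluvastatin. RHOB read 8.79, 8.76, 8.62 and 8.71 in the zoledronate arrays, close to the controls and far below the fluvastatin arrays, a difference of 1.37 ± 0.21 (adjusted p 0.0082). CCNA1 was higher by 1.10 ± 0.22, AKR1C1 by 1.00 ± 0.21, AKR1C3 by 0.84 ± 0.17 and TSC22D3 by 0.82 ± 0.14, with adjusted p of 0.022, 0.024, 0.022 and 0.0095. On the low side were TGFB2 (−0.85 ± 0.17), NEXN (−0.75 ± 0.16), CD274 (−0.75 ± 0.13), EDN1 (−0.73 ± 0.15) and RTL3, a retrotransposon-derived gene (−0.73 ± 0.11, adjusted p 0.0082). RTL3 was a dim gene whose change against control, −0.45, did not pass (adjusted p 0.056).

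The 12 h controls are shared by both agents' comparisons with control, so no agreement between those is given. Zoledronate at 12 h called 0 genes against control in limma, and 511 (2.77%) had an unadjusted p below 0.05, where fluvastatin had 2552 (13.9%). All 4 called Kruppel-like factors were also higher than with zoledronate, KLF2 by 0.68 ± 0.11 (adjusted p 0.0088). Of the YAP/TAZ targets 5 were lower: TGFB2, EDN1, FJX1, ASAP1 and RBMS3. The same fluvastatin arrays and the same estimate of spread enter both comparisons. A gene called against control thus passes more easily against zoledronate, and the calls are not independent. The count of 136 became 1 without replicate 1 (RTL3), 25 without replicate 2, 1 without replicate 3 (CYP1B1) and 53 without replicate 4, and 14 without the replicate block. Median centring gave 43 higher and 104 lower genes, and quantile normalization anew 65 and 68.

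The 24 h fluvastatin arrays have controls of their own and share no array with the 12 h comparison. The estimate of spread per gene is shared, however, as all arrays were in the same fit. A gene with a low spread thus passes more easily at both times, so the calls are not independent. At 24 h, 43 of the 64 genes risen at 12 h had also risen (6.71% of all genes rose then) and 68 of the 97 fallen genes had also fallen (3.77% of all genes fell). These 111 genes were 68.9% of the 12 h calls and 5.75% of the 1930 calls at 24 h (10.5% of all genes). The sign was positive for 57 of 64 and negative for 92 of 97, and the median change was 0.55 and −0.31. Over all genes 47.5% were positive at 24 h and the median change was −0.009. RHOB stood at 1.74 ± 0.21, AKR1C1 at 1.85 ± 0.21, PDK4 at 1.20 ± 0.14, TGFB2 at −0.71 ± 0.17 and MYC at −0.66 ± 0.10. CHRNB4, a nicotinic receptor subunit, was the one gene called in opposite directions, from 0.49 to −0.39.

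Several groups that had no or few calls at 12 h had more at 24 h, when 6.71% of all genes rose and 3.77% fell. Among them, 3 of 9 mevalonate genes and 6 of 10 later sterol genes rose, and 16 of 25 YAP/TAZ targets fell. Other lists gained calls as well, with 10 of 18 ERK feedback genes and 11 of 24 hypoxia and glycolysis genes risen. Not every list did. At 24 h 0 of 29 G2 and mitosis genes and 0 of 12 prenylation genes were called. Of 6 CDK inhibitors 1 rose, with a median of 0.13, and CDKN2D stood at 0.27 ± 0.09 (adjusted p 0.058). HMGCS1 stood at 0.75 ± 0.16, CCN1 at −1.03 ± 0.24 and CCN2 at −0.82 ± 0.20 (adjusted p 0.0051, 0.0077 and 0.011). The difference between the effects at 24 h and 12 h was tested directly and passed for 0 genes in limma (smallest adjusted p 0.112), with 2014 (10.9%) at an unadjusted p below 0.05. For HMGCS1 it was 0.24, for CCN1 −0.09 and for RHOB 0.26, so a count past the threshold at one time only does not show a different effect. Among the 161 genes, 39 had an unadjusted p below 0.05 for it, including AKR1C1 (0.78), SNORD45B (0.85) and SMAD1 (0.36).

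The lot II treatment with 100 µM zoledronate for 24 h likewise shares no array with the 12 h comparison. It too shares the estimate of spread per gene, so its calls are not independent of the 12 h calls. There 50 of the 64 genes rose (15.3% of all genes did) and 91 of the 97 fell (16.6% of all genes), together 87.6% of the 12 h calls and 2.40% of the 5888 calls of that treatment (32.0% of all genes). The median change was 0.80 for the risen and −0.78 for the fallen genes, beside 0.01 for all genes. RHOB stood at 3.01, TSC22D3 at 2.33, CCN1 at −3.60, TGFB2 at −2.15 and CD274 at −1.91. PLXNB2, a semaphorin receptor, was the single gene called in the opposite direction. Over all 18417 genes, the 12 h change correlated with the 24 h fluvastatin change at r = 0.41 and with this zoledronate change at r = 0.58, as a description across genes, which are not independent replicates and share probe sets and platform. Agent, dose, time and lot differ here together and cannot be told apart.

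**Figure D4:**
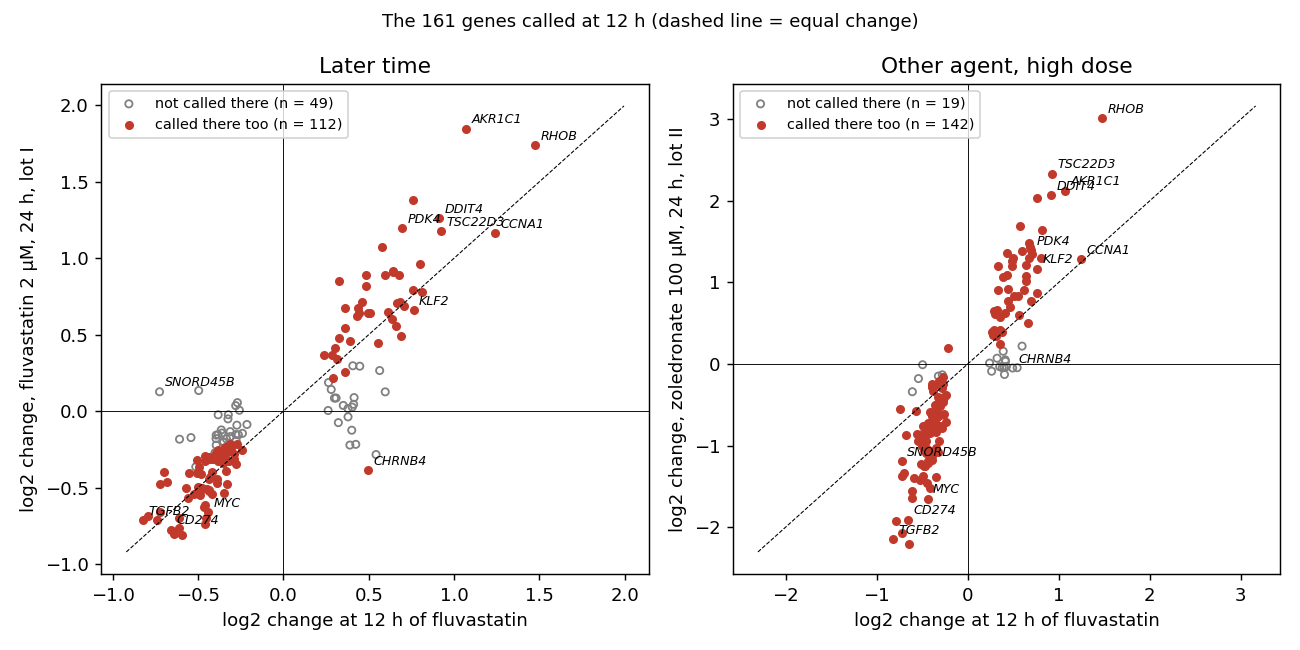
Log2 change of the 161 genes called at 12 h of fluvastatin (x axis) against their change at 24 h of fluvastatin (left, y axis) and at 24 h of 100 µM zoledronate in lot II (right, y axis), with filled points for genes called there too and a dashed line of equal change. On the right RHOB reaches 3.01, and most points lie farther from 0 than the dashed line.

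Some of the called genes had low signals. With a control mean below 6 as the bound, which was chosen after the values were seen and below which 35.4% of all genes lay, 13 risen and 5 fallen genes were dim. At 24 h, 8 of the 13 dim rises were positive and 3 were called, beside 49 and 40 of the 51 brighter rises. Nearest to the threshold, TLCD3A (−0.32), MEGF6 (0.30) and EMP3 (0.32) were just called (adjusted p 0.0492, 0.0492 and 0.0494). The RNA-binding gene RBMS3 (−0.48), IRF2BPL (0.41) and the survival gene BCL2L1 (−0.25) just missed (0.0504, 0.0505 and 0.0505).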

How the data were processed

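RNA from MDA-MB-231 cells was hybridised to Affymetrix Human Gene 1.0 ST arrays. The deposited values are log2 signals that the authors made with RMA in Affymetrix Power Tools 1.10.2, per the submitters' processing notes, which also name limma. The genome build, and whether RMA ran on both lots at once, were not given in the sources used here. RMA pulls arrays to one distribution, so a shift common to most genes would not be seen. Of 33297 probe sets, 19460 had exactly 1 gene symbol in the platform annotation, 1754 had several and 12083 were not listed. Of the 19460, 19429 matched RefSeq (GRCh38.p14). Where a gene had several probe sets (769 genes), the brightest on average across arrays stood for it, leaving 18417 genes with no filter on dim ones.

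All 40 arrays were fitted in limma 3.58.1 (R 4.3.3; lmFit, eBayes, 2-sided, 18 residual degrees of freedom) with 16 blocks of lot, time and replicate number and 6 treated effects, so that all groups share one estimate of the spread. The pairing comes from the design text. Checked on the values, the deviation of each fluvastatin array from its group mean correlated with that of its control partner at 0.385, 0.166, 0.209 and 0.534. Fluvastatin replicate 2 correlated best with control replicate 3, the other 3 with their own partner. Genes named were the 12 largest rises and falls moving one way in 4 of 4 pairs, up to 4 called members of each list with the smallest p, a set list of genes, the 5 largest in each direction of the contrasts, and the 3 on either side of the threshold. Other genes given as examples of a list were chosen after their values were seen. Gene lists and the comparison itself were chosen with earlier results of these data known. Alternatives were no replicate block, fewer arrays, other normalizations, a filter, other probe set and variance choices, and each replicate left out. Protein sequences were not used here, and 2 of the gene lists are not reported here. The number of arrays limits the precision.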

Additional observations from a re-analysis of the deposited data

Results flagged for a closer look

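Of 128 groups of 4 arrays examined (64 named genes, control and fluvastatin), 13 held 1 array whose gap to the nearest other array exceeded Dixon's 95% critical value as a share of the group's range, where chance gives about 1 in 20. In the fluvastatin group, replicate 1 stood low for ANKRD1 (11.58, others 12.51 to 12.62), IL7R (6.613, others 7.588 to 7.785) and NEXN (7.597, others 8.146 to 8.193). Fluvastatin replicate 3 was low for CDC42 (7.055, others 7.441 to 7.507), and replicate 4 was low for CDKN2D (8.697, others 8.987 to 9.036) and MEGF6 (7.078, others 7.195 to 7.219).

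Among controls, replicate 1 was low for DDIT4 (7.114, others 7.77 to 7.824), EMP3 (10.33, others 10.53 to 10.54), FDPS (9.375, others 9.669 to 9.707) and HMGCS1 (8.766, others 9.408 to 9.48). Control replicate 4 was low for CALD1 (7.295, others 7.566 to 7.61) and CCN1 (11.3, others 11.65 to 11.69), and high for RAC1 (11.68, others 11.46 to 11.49).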

How the results depend on the processing

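No named gene past the threshold changed direction under any alternative run (40 of 40 genes). All of these but TLCD3A moved one way in 4 of 4 pairs, so dropping a replicate or block could not reverse their sign. The 161 genes called at 12 h became 20 with no replicate block and 14 with only the arrays compared, and 281 without the dimmest genes (12278 left), 292 with an intensity trend and 318 with array weights. The range with one replicate left out was 0 to 51. The 136 genes that separated fluvastatin from zoledronate became 14, 13, 246, 265 and 277 in the same order, and 1 to 53 with a replicate left out. The 0 genes for the difference between 24 h and 12 h became 1 with lot I arrays alone (GBP2, 1.09) and 0 to 1 with a replicate left out (CHRNB4, −0.89, without replicate 2). Without the replicate block it stayed at 0. Dropping arrays or blocks leaves other degrees of freedom (3 with only the arrays compared); otherwise the cause was not tested. The split between directions at 12 h (64 higher, 97 lower) was 56 and 169 with median centring and 73 and 90 with quantile normalization anew. It was 81 and 61 with only the 12 h arrays and 12 and 2 with only the arrays compared. Against zoledronate (52 and 84) the split was 43 and 104, 65 and 68, 90 and 77, and 11 and 2 in the same order. Of 455 recomputed list medians, 6 moved by more than the spread over pairs and 12 changed sign. No detection p goes with these arrays, so a bound on dim genes is arbitrary.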

Other observations

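Further called genes belong to no list above. They were picked for their known roles after their values were seen, so neither the roles nor the directions describe a group, and no group was tested. Among genes of proteins that bind actin or sit at adhesions, LIMA1 (−0.35 ± 0.07), LPP (−0.28 ± 0.06), PDLIM5 (−0.27 ± 0.06), AFAP1 (−0.27 ± 0.06), WASF3 (−0.29 ± 0.07) and the kinase gene ABL2 (−0.42 ± 0.08) fell, and NHERF1, a scaffold linked to actin, rose (0.33 ± 0.08). LPAR1, a receptor for lysophosphatidic acid, had −0.60 ± 0.14, and FRMD6, an upstream Hippo component that is not among the 18 listed, −0.50 ± 0.11.

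POLR1G, a subunit of RNA polymerase I, had −0.56 ± 0.11, and the nucleolar genes NOL6, WDR43 and RCL1, which are not in the list of 18 ribosome biogenesis genes, −0.43 ± 0.10, −0.32 ± 0.07 and −0.31 ± 0.07. PPRC1, a coactivator of mitochondrial biogenesis, had −0.48 ± 0.11. Rises included TSC22D1, a relative of TSC22D3 (0.60 ± 0.14), the antiproliferative TOB1 (0.58 ± 0.12), the pseudokinase TRIB2 (0.48 ± 0.10), the R-spondin receptor LGR4 (0.48 ± 0.11), the phosphate carrier SLC20A1 (0.46 ± 0.08), HIF1A (0.36 ± 0.07), IDH1 (0.36 ± 0.08) and the nuclear receptor RXRA (0.30 ± 0.07).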
